A study of Homo sapiens with 12 samples.

Results

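PQL/Opa-deleted MED12 was compared with nuclear GFP in transfected cells of the line HEK293, which was established from human embryonic kidney. The comparison uses 6 of the 12 arrays of the series, the 3 whose labels name the PQL/Opa domain deletion and the 3 labelled as the GFP control, and it was described across the 14232 genes that had a row with 1 gene symbol. Cells of the first group received MED12 without its PQL and Opa domains, fused at the N-terminus to nuclear GFP, with an engineered Kozak sequence and in pcDNA5/TO, and cells of the control received nuclear GFP in the same vector. The other 6 arrays entered the statistical model and were otherwise used only for comparison with the deleted construct. They came from 3 samples of full-length MED12, built with the same tag, Kozak sequence and vector, and from 3 samples of a MED12 short hairpin RNA (shRNA) driven by an H1 promoter in peGFP-C1. A hairpin control is not among the labelled groups. All groups still carried the cells' own MED12 gene. Cells grew for 24 h before lipofection and were harvested 48 h after it, and viable cells with GFP fluorescence were sorted for 20 min per sample. The labels call the 3 samples of a group biological replicates. Each sample is a pool of transiently transfected, sorted cells, so a value averages over cells with different amounts of plasmid.

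Mediator is the protein complex that carries signals from transcription factors to RNA polymerase II. MED12 belongs to its kinase module, with MED13, cyclin C and the kinase CDK8 or CDK19, and it activates the kinase and docks the module's partners. The PQL domain, rich in proline, glutamine and leucine, and the glutamine-rich Opa domain lie towards the C-terminus. The PQL domain is known as a binding surface for regulators such as beta-catenin, SOX9 and the REST corepressor system. The comparison asks which transcripts differ in cells that make an excess of MED12 without these domains.

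Values are log2 RMA values, 1 per row and array, where a row is a transcript cluster. A log2 fold change is the PQL/Opa-deleted mean less the GFP mean. The number of arrays limits the precision, and the median standard error over genes was 0.21. A row passed when limma's two-sided test, fitted to all 12 arrays, gave a Benjamini-Hochberg adjusted p under 0.05 over all 22011 rows. The arrays of replicate 1 stood apart in both groups. Their log2 values spread less, with a standard deviation of 1.45 in PQL/Opa-deleted replicate 1 and 1.40 in GFP replicate 1, against 1.56 and 1.60 in the other PQL/Opa-deleted arrays and 1.58 and 1.60 in the other GFP arrays. Medians of fold changes over gene lists are therefore given as deposited and without these arrays. Without both stands for a fit without replicate 1 of the PQL/Opa-deleted, GFP and hairpin groups.

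MED12 was the only row that passed. Its log2 value was 8.62, 8.90 and 9.25 in the PQL/Opa-deleted arrays, against 4.03, 4.56 and 4.66 in the GFP arrays. Every PQL/Opa-deleted array lay far above every GFP array, and the groups did not overlap. MED12, on chromosome X, averaged 8.92 ± 0.32 with the deleted construct and 4.41 ± 0.34 with GFP (SD, n = 3 each), 4.51 ± 0.20 higher on the log2 scale (SE) or 22.7-fold (limma, adjusted p = 1.54e-06). An exact two-sided permutation test of 3 against 3 arrays gave p = 0.1, the smallest it allows. The positions of the MED12 probes are unknown here, and any that lie in the deleted domains would miss the construct, so the value is not a measure of its amount alone. The level is also an average over the sorted cells, in which more cells with the construct and more transcript per cell cannot be told apart.

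The other members of the kinase module did not pass. MED13, the subunit that joins the module to core Mediator, had 5.12, 5.75 and 6.11 in the PQL/Opa-deleted arrays, against 4.90, 5.96 and 6.12 in the GFP arrays, and the groups overlapped across their whole range. CDK8, the module's kinase, had 3.89, 4.90 and 4.97 with the deleted construct, against 4.38, 5.00 and 5.17 with GFP, a log2 fold change of -0.26 ± 0.33 (SE). CCNC, which encodes cyclin C, had -0.11 ± 0.24 (SE) and the alternative kinase gene CDK19 had -0.08 ± 0.15. The paralogue MED12L had a log2 fold change of 0.13 ± 0.18 (SE) and MED13L had 0.16 ± 0.35. For none of the 6 did the groups separate, and the low value of MED13, MED13L and CDK8 in each group came from replicate 1. CDK8 had a log2 fold change of 0.084 without PQL/Opa-deleted replicate 1.

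**Figure D1:**
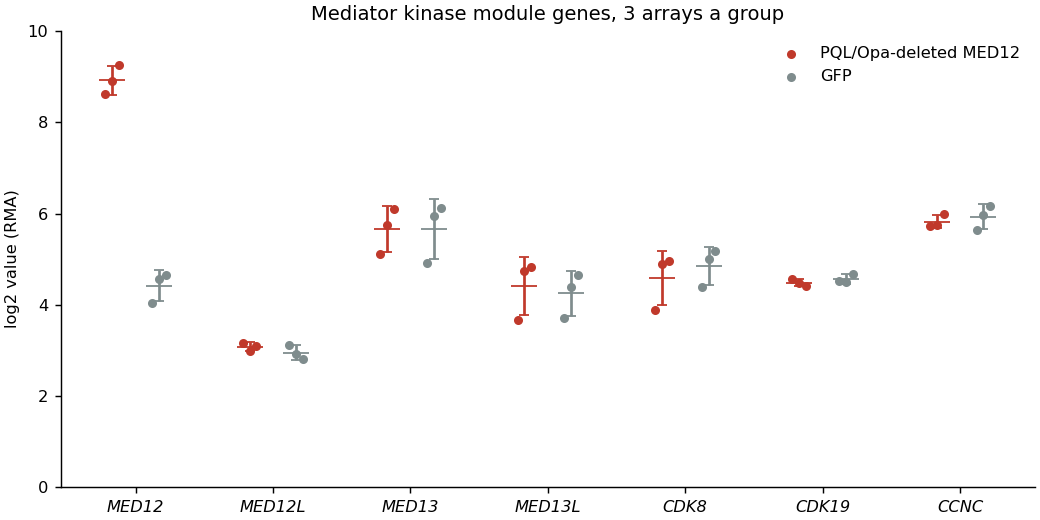
Log2 RMA value of the 7 Mediator kinase module genes in the 3 PQL/Opa-deleted MED12 arrays (red) and the 3 GFP arrays (grey); points are arrays, horizontal marks are means and bars are standard deviations. MED12 lies between 8.62 and 9.25 with the deleted construct and between 4.03 and 4.66 with GFP, while the points of the other 6 genes overlap between the groups.

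Across all 22011 rows, 1 row, or 0.00454%, rose with PQL/Opa-deleted MED12 and 0 fell (limma). The unadjusted p was under 0.05 in 761 rows, 3.46% of the total, with 386 higher (1.75%) and 375 lower (1.7%). Over all rows 117 (0.532%) had a log2 fold change of 1 or more and 89 (0.404%) had -1 or less. Among the 14232 genes the log2 fold changes had a median of -0.0043, and their quartiles were -0.12 and 0.12. A log2 fold change above 0 was found in 49% of them, one of 1 or more in 9 (0.0632%) and one of -1 or less in 5 (0.0351%). Groups did not overlap in 529 genes that were higher (3.72%) and in 419 that were lower (2.94%). At an unadjusted p under 0.05, 171 genes were higher (1.2%) and 102 were lower (0.717%), together 1.92%. These shares are the background for every count of list members below. When limma's array weights were used, 20 rows passed, 12 higher and 8 lower. Those weights were 0.306 for PQL/Opa-deleted replicate 1 and 0.287 for GFP replicate 1, and the rows with 1 symbol among the 20 were MED12, RSAD2, KRTAP3-1, IFIT3, IFI44, ZFAND2A, IFIT2 and ND6. A fit that blocked on replicate number called 2 rows, MED12 and row 2686794, which has no symbol. That row had 0.92, 0.41 and 0.30 in the PQL/Opa-deleted arrays, against 2.44, 1.72 and 1.53 in the GFP arrays, at the dim end of the array (limma, blocked fit, adjusted p = 0.0493).

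The sign of the fold change was tied to the level of the gene, in a way that depended on the arrays of replicate 1. In the dimmest 25% of rows the median log2 fold change of genes was -0.039 and 39.4% of genes were above 0, while in the brightest 25% the median was 0.045 and 57.8% were above 0. Over the 14232 genes, Spearman's rho of the fold change with the mean level was 0.166, given as a description, since genes share the same arrays. After quantile normalization the medians of the 4 level bins lay between -0.0057 and 0.0021. Without GFP replicate 1 the order turned, with 0.089 in the dimmest bin and -0.070 in the brightest, and without PQL/Opa-deleted replicate 1 the medians were -0.16 and 0.14. Without both, the medians were -0.027 in the dimmest bin and 0.011 in the brightest. Small medians of lists of bright or dim genes are read beside these values.

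**Figure D2:**
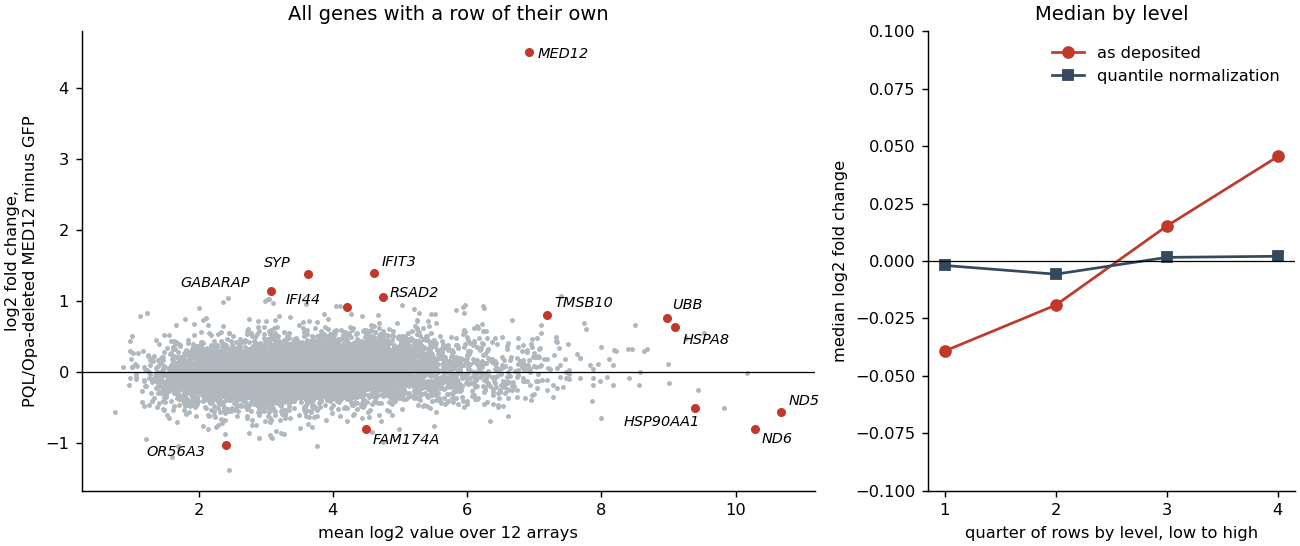
Left, log2 fold change of PQL/Opa-deleted MED12 minus GFP against the mean log2 value over the 12 arrays for 14232 genes, with named genes in red. Right, median log2 fold change by level bin of 25% of rows, dim to bright, as deposited (red circles, -0.039 to 0.045) and after quantile normalization (dark squares, -0.0057 to 0.0021). MED12 stands alone at 4.51.

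Among the genes, the interferon-induced effectors IFI44 and IFIT3 had the smallest p-values after MED12. IFIT proteins bind viral RNA, viperin, the product of RSAD2, makes a chain-terminating nucleotide, and IFI44 is an interferon-induced cytoplasmic protein. IFI44 had 4.03, 4.17 and 4.24 in the PQL/Opa-deleted arrays, against 3.12, 3.39 and 3.21 in the GFP arrays. The groups were narrow and did not overlap. The difference of the means, 0.91 ± 0.16 on the log2 scale (SE), did not pass (limma, adjusted p = 0.598). IFIT3 had 4.48, 5.32 and 5.04 with the deleted construct, against 3.43, 3.45 and 3.80 with GFP. Here too all 3 PQL/Opa-deleted arrays were above all 3 GFP arrays, by a mean of 1.39 ± 0.27 (SE; limma, adjusted p = 0.860). RSAD2 had 4.51, 4.78 and 4.91 in the PQL/Opa-deleted arrays and 3.98, 3.45 and 3.63 in the GFP arrays, 1.05 ± 0.22 higher on the log2 scale (SE; limma, adjusted p = 0.860). IFIT2 had 4.61, 5.13 and 4.98 with the deleted construct and 3.67, 4.02 and 4.22 with GFP, 0.94 ± 0.25 higher on the log2 scale (SE; limma, adjusted p = 1.00). The groups of these 4 genes did not overlap, which was part of how they were chosen and by itself puts 3 of 3 replicate pairs higher. All 4 passed in the fit with array weights, at 0.85 for IFI44, 1.64 for IFIT3, 1.29 for RSAD2 and 1.00 for IFIT2 (limma, adjusted p from 0.0233 to 0.0348), and in no other alternative.

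All 15 genes of the list of IFIT and viperin-type effectors were measured, IFI44, IFIT3 and RSAD2 among them. Of the 15, 14 had a log2 fold change above 0, with a median of 0.36, beside -0.0043 over all genes. The list was chosen with earlier results of these data known and shares genes with those named above, so its values are no independent support. Groups did not overlap in 6, all higher, and 6 had an unadjusted p under 0.05, again all higher. The mean of the members, set to 0 for the GFP mean, was 0.29, 0.54 and 0.54 in the PQL/Opa-deleted arrays, against 0.00, -0.07 and 0.07 in the GFP arrays, and the 2 groups of 3 did not overlap. Of the 40 lists, the means of the kinase module, virus restriction, ubiquitin, mitochondrially encoded and both cytosolic ribosomal lists did not overlap either. The kinase module list holds the transfected MED12 itself, and none of its other 6 genes separated the groups. The effector median was 0.34 without PQL/Opa-deleted replicate 1, 0.31 without GFP replicate 1 and 0.47 without both, and it was 0.31 after quantile normalization. Among the OAS and MX genes, whose products sense double-stranded RNA or trap viral particles, 6 of 7 were measured and all 6 were above 0, with a median of 0.19. That median was 0.18 without PQL/Opa-deleted replicate 1, 0.30 without GFP replicate 1 and 0.30 without both. The mean of the OAS and MX genes, on the scale above, overlapped between the groups, with 0.172 in PQL/Opa-deleted replicate 3 and 0.195 in GFP replicate 1. MX1, a dynamin-like GTPase that blocks viral replication, had 3.72, 3.94 and 3.68 in the PQL/Opa-deleted arrays, against 2.95, 3.18 and 3.06 in the GFP arrays, which did not overlap (0.72 ± 0.20, SE; limma, adjusted p = 1.00). OAS3 had 0.30, OAS2 had 0.25 and MX2 had 0.14. In the list of virus restriction and ISG15 pathway genes 13 of 15 measured members were above 0, with a median of 0.20, 3 members without overlap and 1 at an unadjusted p under 0.05. The median was 0.15 without PQL/Opa-deleted replicate 1, 0.25 without GFP replicate 1 and 0.16 without both. SAMD9, an antiviral restriction factor, had a log2 fold change of 0.47 ± 0.16 (SE), IFITM1, which blocks viral entry, had 0.38, ISG15, the ubiquitin-like modifier, had 0.29 and the peptide transporter gene TAP1 had 0.27.

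The lists of genes upstream of these effectors had medians from -0.13 to 0.015. Of the 20 measured sensors and adaptors of foreign RNA and DNA, 10 were above 0 and the median was 0.015, with 0 members at an unadjusted p under 0.05. It was -0.059 without PQL/Opa-deleted replicate 1, 0.093 without GFP replicate 1 and -0.011 without both. RIGI, a cytosolic RNA sensor, had a log2 fold change of 0.51, IFIH1, its relative and also a member of the effector list, had 0.36 and TRIM25, the ubiquitin ligase of RIGI, had 0.36, while ZBP1, a sensor of Z-form nucleic acid, had -0.31. Interferon receptors, kinases and STATs had a median of 0.0066, with 7 of 13 measured members above 0, and 0 at an unadjusted p under 0.05. This value was 0.017 without PQL/Opa-deleted replicate 1, -0.016 without GFP replicate 1 and -0.015 without both. The interferon and cytokine genes themselves had a median of -0.13, with 3 of 12 measured members above 0 and 2 without overlap, both lower. These were IL12A at -0.56 and CCL5 at -0.31, and the list's median level of 2.41 lies in the dimmest 25% of rows. The median of these cytokine genes was -0.32 without PQL/Opa-deleted replicate 1, 0.094 without GFP replicate 1 and -0.053 without both. NF-kB targets had a median of -0.047, with 3 of 12 above 0, and this median was -0.14 without PQL/Opa-deleted replicate 1, 0.024 without GFP replicate 1 and -0.030 without both.

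Promoter sequence is shown for 3 of the effectors whose groups did not overlap, since genes of this kind are known to be switched on through the interferon-stimulated response element (ISRE). The motif searched was GAAA, any 2 bases and GAAA, on both strands, in windows of 250 bases before to 50 after the start of the gene (RefSeq, GRCh38.p14). Matches are in capitals; TTTC at both ends marks a match on the opposite strand. A gene can have several windows, and 1 window that held a match is printed per gene. The other RSAD2 window held 0 matches. MX1 and SP110 were also searched. Every MX1 window but 1 held a match, in 1 of them after the start of the gene. The remaining MX1 window and every SP110 window held 0. The IFI44 window is chr1:78649581-78649880, plus strand, the RSAD2 window is chr2:6877527-6877826, plus strand, and the IFIT3 window is chr10:89332279-89332578, plus strand.
IFI44: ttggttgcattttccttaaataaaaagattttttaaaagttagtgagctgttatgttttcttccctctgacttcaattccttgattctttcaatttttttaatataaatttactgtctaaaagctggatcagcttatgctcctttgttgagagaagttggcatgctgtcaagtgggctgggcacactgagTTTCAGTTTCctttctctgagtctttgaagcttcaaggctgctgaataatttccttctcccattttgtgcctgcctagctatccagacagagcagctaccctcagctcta
RSAD2: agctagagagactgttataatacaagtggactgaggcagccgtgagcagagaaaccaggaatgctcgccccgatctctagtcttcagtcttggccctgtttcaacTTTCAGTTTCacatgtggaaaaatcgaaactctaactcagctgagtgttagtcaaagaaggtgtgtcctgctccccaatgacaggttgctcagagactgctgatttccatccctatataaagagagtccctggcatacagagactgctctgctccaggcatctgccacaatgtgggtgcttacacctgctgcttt
IFIT3: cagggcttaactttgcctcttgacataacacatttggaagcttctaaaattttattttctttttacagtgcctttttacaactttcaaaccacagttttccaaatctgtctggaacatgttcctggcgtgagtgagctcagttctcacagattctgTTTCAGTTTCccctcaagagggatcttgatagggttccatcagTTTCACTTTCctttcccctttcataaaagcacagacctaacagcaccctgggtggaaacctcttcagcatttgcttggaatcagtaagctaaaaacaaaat
The match began 60 bases before the start in IFI44 and 145 before it in RSAD2, and the 2 matches of IFIT3 began 94 and 51 bases before it. Of the 15 effectors 14 had a promoter sequence, and 11 of these held the motif in at least 1 window, against 1195 of 27305 genes (4.38%) and 1255 of 35116 windows (3.57%) in the whole table. A match is a description of the letters in the window and shows no binding. The listed genes are of a kind known for this element, so the share describes the list and not the arrays.

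Several chaperone and ubiquitin genes were also among the bright genes with the smallest p-values. UBB, which encodes polyubiquitin, had 9.37, 9.49 and 9.30 in the PQL/Opa-deleted arrays, against 8.57, 8.65 and 8.68 in the GFP arrays. The 2 sets were tight and well apart, 0.75 ± 0.16 in log2 units (SE; limma, adjusted p = 0.860). HSPA8, the constitutive cytosolic HSP70 chaperone, had 9.30, 9.57 and 9.26 with the deleted construct, against 8.55, 8.84 and 8.87 with GFP, again without overlap (0.62 ± 0.17, SE; limma, adjusted p = 1.00). ZFAND2A, an arsenite- and heat-inducible zinc finger gene whose product binds the proteasome, had 5.46, 5.85 and 5.91 in the PQL/Opa-deleted arrays, against 5.09, 4.87 and 5.08 in the GFP arrays. The groups did not overlap, at 0.73 ± 0.19 (SE; limma, adjusted p = 1.00), and with array weights the gene passed at 0.92 (limma, adjusted p = 0.0296). HSP90AA1, the inducible cytosolic HSP90 gene, lay on the other side, with 9.15, 8.88 and 9.34 in the PQL/Opa-deleted arrays and 9.69, 9.55 and 9.66 in the GFP arrays. All 3 PQL/Opa-deleted arrays were below all 3 GFP arrays, at -0.51 ± 0.18 (SE; limma, adjusted p = 1.00). UBB and HSPA8 have processed pseudogenes of near-identical sequence that the probes could also read.

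Of the 27 cytosolic heat shock genes 18 were measured, with 14 above 0 and a median of 0.22. The median was 0.36 without PQL/Opa-deleted replicate 1, 0.19 without GFP replicate 1 and 0.26 without both. Groups did not overlap in 4 higher members and 1 lower one, and 0 passed. HSPA1L, an HSP70 gene, had a log2 fold change of 0.48 ± 0.21 (SE) and SERPINH1, the collagen chaperone, had 0.34 ± 0.16. The list's mean, set to 0 for the GFP mean, was 0.09, 0.24 and 0.27 in the PQL/Opa-deleted arrays, against -0.21, 0.15 and 0.05 in the GFP arrays. Here the groups overlapped, and the lowest array of each was the narrow replicate 1. Within replicate pairs, taken by number alone, the PQL/Opa-deleted array was higher in 3 of 3, by 0.30, 0.088 and 0.22. Lists of other kinds were also higher in 3 of 3, among them RNA polymerase II, Hedgehog, p53, immediate early and replication genes. Others, such as core Mediator, were not. The 3 of 3 is therefore not particular to heat shock genes. Of the ubiquitin genes 6 of 15 were measured and 5 were above 0, with a median of 0.23. It was 0.26 without PQL/Opa-deleted replicate 1, 0.11 without GFP replicate 1 and 0.14 without both. NEDD8, a ubiquitin-like modifier, had 0.69 (0.35 to 0.87 over the fits without a single array), the activating enzyme gene UBA1 had 0.30 and SUMO2, another modifier, had -0.19. Proteasome subunits had 20 of 24 measured members above 0 and a median of 0.18, with PSMD8 at 0.82, PSMD2 at 0.51, PSMB2 at 0.49 and PSMB5 at 0.30. Over the fits without a single array PSMD8 ran from 0.32 to 1.10, PSMD2 from 0.30 to 0.67, PSMB2 from 0.11 to 0.70 and PSMB5 from 0.15 to 0.39. The median of the proteasome list was 0.34 without PQL/Opa-deleted replicate 1, -0.0071 without GFP replicate 1 and 0.098 without both. The promoter of HSPA8 is printed because the gene carries the heat shock element, searched on both strands as GAA, any 2 bases, TTC, any 2 bases and GAA, in capitals (RefSeq, GRCh38.p14, chr11:123062087-123062386, minus strand).
HSPA8: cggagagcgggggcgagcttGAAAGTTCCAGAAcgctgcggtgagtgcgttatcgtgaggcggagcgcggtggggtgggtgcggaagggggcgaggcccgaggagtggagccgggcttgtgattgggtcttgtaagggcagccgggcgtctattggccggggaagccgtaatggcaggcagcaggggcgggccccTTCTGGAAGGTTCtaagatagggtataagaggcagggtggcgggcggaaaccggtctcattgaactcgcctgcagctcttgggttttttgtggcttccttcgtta
The matches began 230 and 55 bases before the start. Of the heat shock genes with a promoter sequence 6 of 16 held the element, against 166 of 27305 genes (0.608%) in the whole table. HSP90AA1, which was lower with the deleted construct, was among the 6, and 0 windows of UBB and ZFAND2A held these letters. The share describes the list and not the arrays.

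The mitochondrial transcripts that could be read lay lower with the deleted construct. Only 2 of 26 mitochondrially encoded genes had a row of their own, ND5 and ND6, which encode subunits of respiratory complex I and lie on opposite strands of the mitochondrial genome. ND6 had 10.08, 9.44 and 9.84 in the PQL/Opa-deleted arrays, against 10.71, 10.61 and 10.47 in the GFP arrays. ND5 had 10.28, 10.15 and 10.61 with the deleted construct, against 10.71, 10.91 and 11.13 with GFP. Both were without overlap, at -0.81 ± 0.19 (SE; limma, adjusted p = 0.906) for ND6 and -0.57 ± 0.18 (SE; limma, adjusted p = 1.00) for ND5. The rows rank at the 99.7th (ND6) and 99.9th (ND5) percentile of level, and their median was -0.69 as deposited and -0.46 after quantile normalization. It was -0.74 without PQL/Opa-deleted replicate 1, -0.71 without GFP replicate 1 and -0.77 without both. ND6 passed with array weights at -0.95 (limma, adjusted p = 0.0428). Most nuclear genes of the same respiratory chain had values above 0 as deposited. Complex I genes had 20 of 27 measured members above 0 and a median of 0.13, complexes II to IV had 14 of 18 and 0.31, and ATP synthase had 7 of 10 and 0.17. CYC1, cytochrome c1, had a log2 fold change of 0.60 ± 0.20 (SE), COX8A had 0.46 ± 0.19 and COX5B had 0.42 ± 0.23, while COX5A had -0.39 ± 0.21. In complex I, NDUFV1 had 0.53, NDUFS6 had 0.36, NDUFA1 had 0.35 and NDUFC1 had 0.34. The complex I median was 0.17 without PQL/Opa-deleted replicate 1, 0.031 without GFP replicate 1 and 0.080 without both. For complexes II to IV it was 0.34 without PQL/Opa-deleted replicate 1, 0.085 without GFP replicate 1 and 0.12 without both. For ATP synthase it was 0.24 without PQL/Opa-deleted replicate 1, 0.037 without GFP replicate 1 and 0.060 without both.

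Beyond these groups, the bright genes with the smallest p-values on the higher side were FIS1, TMSB10 and PA2G4. FIS1, a mitochondrial fission protein gene, had 4.05, 4.21 and 4.17 in the PQL/Opa-deleted arrays, against 3.49, 3.70 and 3.34 in the GFP arrays. TMSB10, which encodes an actin monomer-binding thymosin, had 7.92, 7.61 and 7.59 with the deleted construct, against 6.57, 7.09 and 7.04 with GFP. PA2G4, a growth regulator and ribosome-associated protein gene, had 9.94, 9.89 and 9.75 in the PQL/Opa-deleted arrays, against 9.21, 9.36 and 9.40 in the GFP arrays. None of the 3 overlapped between groups, and the log2 fold change was 0.63 ± 0.17 for FIS1, 0.81 ± 0.22 for TMSB10 and 0.54 ± 0.15 for PA2G4 (SE; limma, adjusted p = 1.00 for each). The largest bright differences also took in SYP, the synaptic vesicle protein synaptophysin, with 4.83, 3.94 and 4.38 in the PQL/Opa-deleted arrays, against 2.76, 2.44 and 3.81 in the GFP arrays. SYP counted as bright through its mean of 3.63 over the 12 arrays, and its mean over the 3 other groups, 3.37, is under the median level of 3.43. IFI44 and MX1 were also under that level with GFP, at means of 3.24 and 3.06. Their place among the bright genes drew on the hairpin arrays, with means of 5.72 and 4.26. RPL18, a protein of the large ribosomal subunit, had 7.66, 8.11 and 8.14 in the PQL/Opa-deleted arrays, against 5.82, 7.43 and 7.44 in the GFP arrays, where replicate 1 was far below the others.

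On the lower side the bright genes with the smallest p-values besides ND6, ND5 and HSP90AA1 had varied known functions. BET1, a SNARE protein of transport between endoplasmic reticulum and Golgi, had 3.26, 3.45 and 3.27 in the PQL/Opa-deleted arrays, against 3.97, 3.75 and 4.16 in the GFP arrays. PCNP, a nuclear protein gene, had 6.23, 6.40 and 6.20 with the deleted construct, against 6.94, 6.76 and 6.64 with GFP. CENPE, the kinesin that moves chromosomes to the spindle equator, had 3.69, 4.08 and 4.05 in the PQL/Opa-deleted arrays and 4.27, 4.69 and 4.72 in the GFP arrays. In all 3 genes every PQL/Opa-deleted array lay below every GFP array, at -0.63 ± 0.17 for BET1, -0.50 ± 0.14 for PCNP and -0.62 ± 0.20 for CENPE (SE; limma, adjusted p = 1.00 for each). The log2 fold change was -0.58 for the zinc finger gene THAP5, and LSM6, of the U6 snRNA-binding ring, had -0.61, SGCA, a sarcoglycan gene, -0.62, CLNS1A, a chaperone of snRNP assembly, -0.69, and MPHOSPH10, a factor of ribosomal RNA processing, -0.49. FAM174A had a log2 fold change of -0.81 ± 0.29 (SE), and its lowest value, 3.48, came from PQL/Opa-deleted replicate 1. The same array was low for PLEKHA3, a Golgi lipid-binding protein gene, with 4.29, 5.40 and 5.34 in the PQL/Opa-deleted arrays, against 5.59, 5.85 and 5.87 with GFP, and for the olfactory receptor gene OR10S1, with 2.68, 3.92 and 3.47 in the PQL/Opa-deleted arrays, against 4.13, 4.19 and 4.08 with GFP.

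**Figure D3:**
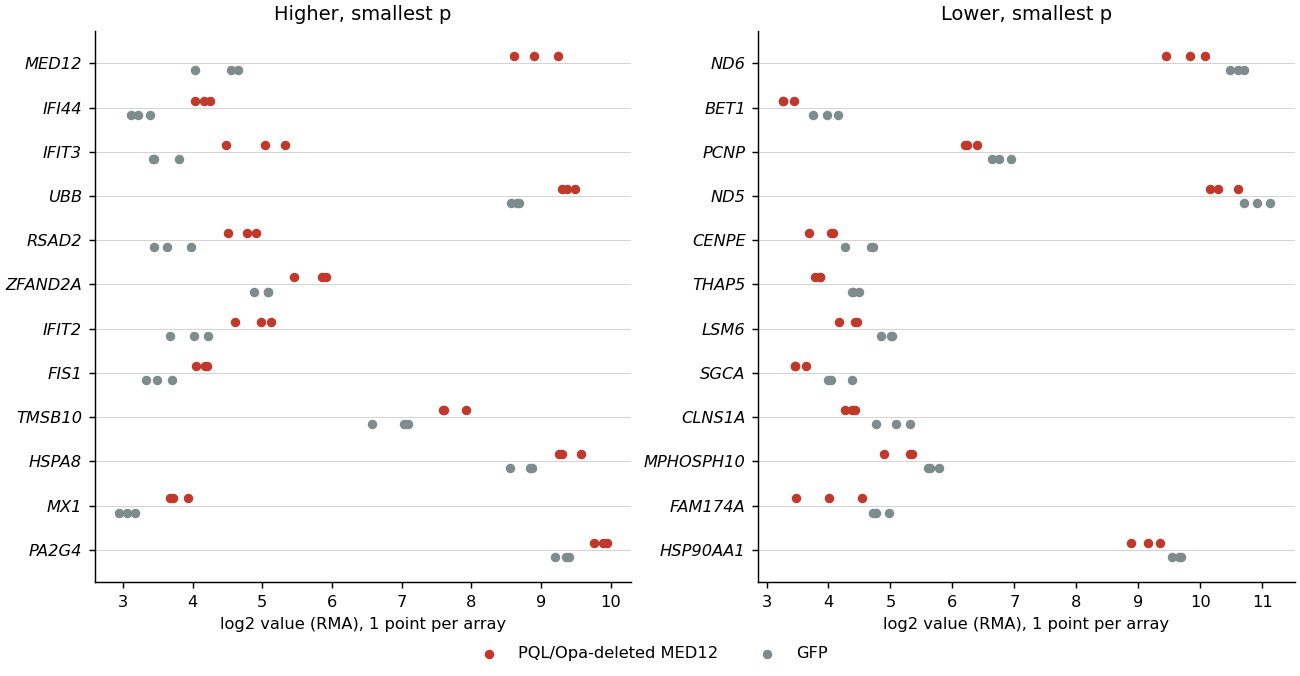
Log2 RMA values of the 12 bright genes with the smallest p-values among those without overlap on the higher side (left) and on the lower side (right); each point is 1 array, with the 3 PQL/Opa-deleted MED12 arrays (red) drawn above the 3 GFP arrays (grey). The genes were chosen for the separation that the plot shows, and only MED12 passed over all rows.

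Among rows with 1 symbol under the median level of 3.43, where a row may lie near background, 141 of 7298 without overlap were higher and 218 were lower, whereas among brighter rows 393 of 7134 were higher and 206 were lower. GABARAP, an autophagy adaptor gene, had 3.90, 3.75 and 3.61 in the PQL/Opa-deleted arrays, against 2.26, 2.55 and 3.01 in the GFP arrays. NUP50, a nuclear pore gene, had 3.38, 3.27 and 2.99 with the deleted construct, against 2.34, 2.56 and 2.60 with GFP. The groups of both genes stood clear of each other, at 1.14 ± 0.26 for GABARAP (SE; limma, adjusted p = 0.889) and 0.71 ± 0.15 for NUP50 (SE; limma, adjusted p = 0.860). The olfactory receptor pseudogene OR2W5P had 1.03, ATP5PB, a stator subunit of ATP synthase, 0.74 and SNAPIN, a SNARE-associated protein gene, 0.73. On the lower side OR56A3, an olfactory receptor gene, had -1.03, ZNF138, a zinc finger gene, -0.87, KIAA0232 -0.81 and SPTSSA, a small subunit of serine palmitoyltransferase, -0.50. KRTAP3-1, a hair keratin-associated protein gene, had 2.53, 2.13 and 2.24 in the PQL/Opa-deleted arrays, against 2.88, 3.26 and 3.00 in the GFP arrays, at -0.75 ± 0.17 (SE; limma, adjusted p = 0.906), and passed with array weights at -0.98 (limma, adjusted p = 0.0256).

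Lists of genes tied to Mediator and to the known partners of the MED12 PQL domain held 0 members that passed. Of the 21 measured core Mediator subunits 13 were above 0, the median was 0.021 and the values ran from -0.20 to 0.23, with 0 members without overlap. The median was 0.14 without PQL/Opa-deleted replicate 1, -0.025 without GFP replicate 1 and 0.082 without both. RNA polymerase II subunits had a median of 0.15, with 7 of 10 above 0 and 0 at an unadjusted p under 0.05. The polymerase median was 0.33 without PQL/Opa-deleted replicate 1, -0.058 without GFP replicate 1 and 0.057 without both. The count above 0 was 4 of 10 without GFP replicate 1. REST and its corepressors, which silence neuronal genes outside neurons, had a median of 0.016, with 8 of 14 above 0, and this median was 0.084 without PQL/Opa-deleted replicate 1, -0.068 without GFP replicate 1 and -0.031 without both. Without GFP replicate 1, 2 of 14 were above 0. Neuronal genes repressed by REST had a median of -0.093, with 6 of 25 above 0 and 17 of the 25 in the dimmer rows, where values below 0 were the more common as deposited. Their median was -0.18 without PQL/Opa-deleted replicate 1, -0.012 without GFP replicate 1 and -0.063 without both, with 12 of 25 above 0 when GFP replicate 1 was left out. SYP was their outlier at 1.38 ± 0.41 (SE), while CHGB, a granin gene, had -0.35 and CALB1, a calcium-binding protein gene, had -0.35. Targets of Wnt and beta-catenin had a median of 0.033, with 9 of 15 above 0 and DKK1, a secreted Wnt antagonist gene, at 0.53 ± 0.18 (SE). TNFRSF19 had -0.32, SP5, a transcription factor gene, had -0.26 and NKD1, a feedback inhibitor gene, had -0.12. The Wnt median was -0.056 without PQL/Opa-deleted replicate 1, 0.12 without GFP replicate 1 and 0.022 without both. Hedgehog pathway genes had a median of 0.077, with 9 of 13 above 0 and GLI3, a transcription factor of the pathway, at 0.28. The Hedgehog median was -0.025 without PQL/Opa-deleted replicate 1, 0.12 without GFP replicate 1 and 0.022 without both. The list of SOX9 and nuclear receptor partners had a median of 0.062, with 6 of 9 above 0 and beta-catenin's gene CTNNB1 at 0.39. The partner median was -0.050 without PQL/Opa-deleted replicate 1, 0.11 without GFP replicate 1 and 0.024 without both.

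Several housekeeping lists hold mostly bright genes and are read beside the level bins above. Small ribosomal subunit proteins had 7 of 11 measured members above 0 and a median of 0.21, with RPS14 at 0.93 ± 0.32 (SE). Large ribosomal subunit proteins had 11 of 14 above 0 and a median of 0.21, with RPL8 at 0.51 and RPL37A at 0.57, while RPL27A had -0.47, and RPL37A ran from 0.17 to 0.83 over the fits without a single array. The small subunit median was 0.19 without PQL/Opa-deleted replicate 1, -0.047 without GFP replicate 1 and 0.22 without both. The large subunit median was 0.29 without PQL/Opa-deleted replicate 1, 0.22 without GFP replicate 1 and 0.13 without both, and -0.018 with array weights. Glycolysis and hypoxia genes had 17 of 25 above 0 and a median of 0.14, with the glycolytic enzyme genes ENO1 at 0.91, PKM at 0.40 and ALDOA at 0.36, and PFKL at -0.28. The glycolysis median was 0.14 without PQL/Opa-deleted replicate 1, 0.088 without GFP replicate 1 and 0.10 without both. Replication genes had 17 of 27 above 0 and a median of 0.043, which was 0.12 without PQL/Opa-deleted replicate 1, -0.052 without GFP replicate 1 and 0.031 without both. Genes of G2 and mitosis had 12 of 27 above 0 and a median of -0.034, and within the list CDC20, the activator of the anaphase-promoting complex, had 0.96 ± 0.35 (SE), BIRC5 had 0.67 (0.25 to 0.89 without single arrays) and AURKB, a mitotic kinase gene, had 0.39, beside -0.62 for CENPE. The mitosis median was 0.058 without PQL/Opa-deleted replicate 1, -0.22 without GFP replicate 1 and -0.074 without both. Targets of ATF4, the transcription factor of amino acid stress, had 16 of 25 above 0 and a median of 0.13, with SHMT2 at 0.53 and PSAT1 at 0.42, both enzymes of serine metabolism. The ATF4 median was 0.19 without PQL/Opa-deleted replicate 1, 0.062 without GFP replicate 1 and 0.15 without both.

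**Figure D4:**
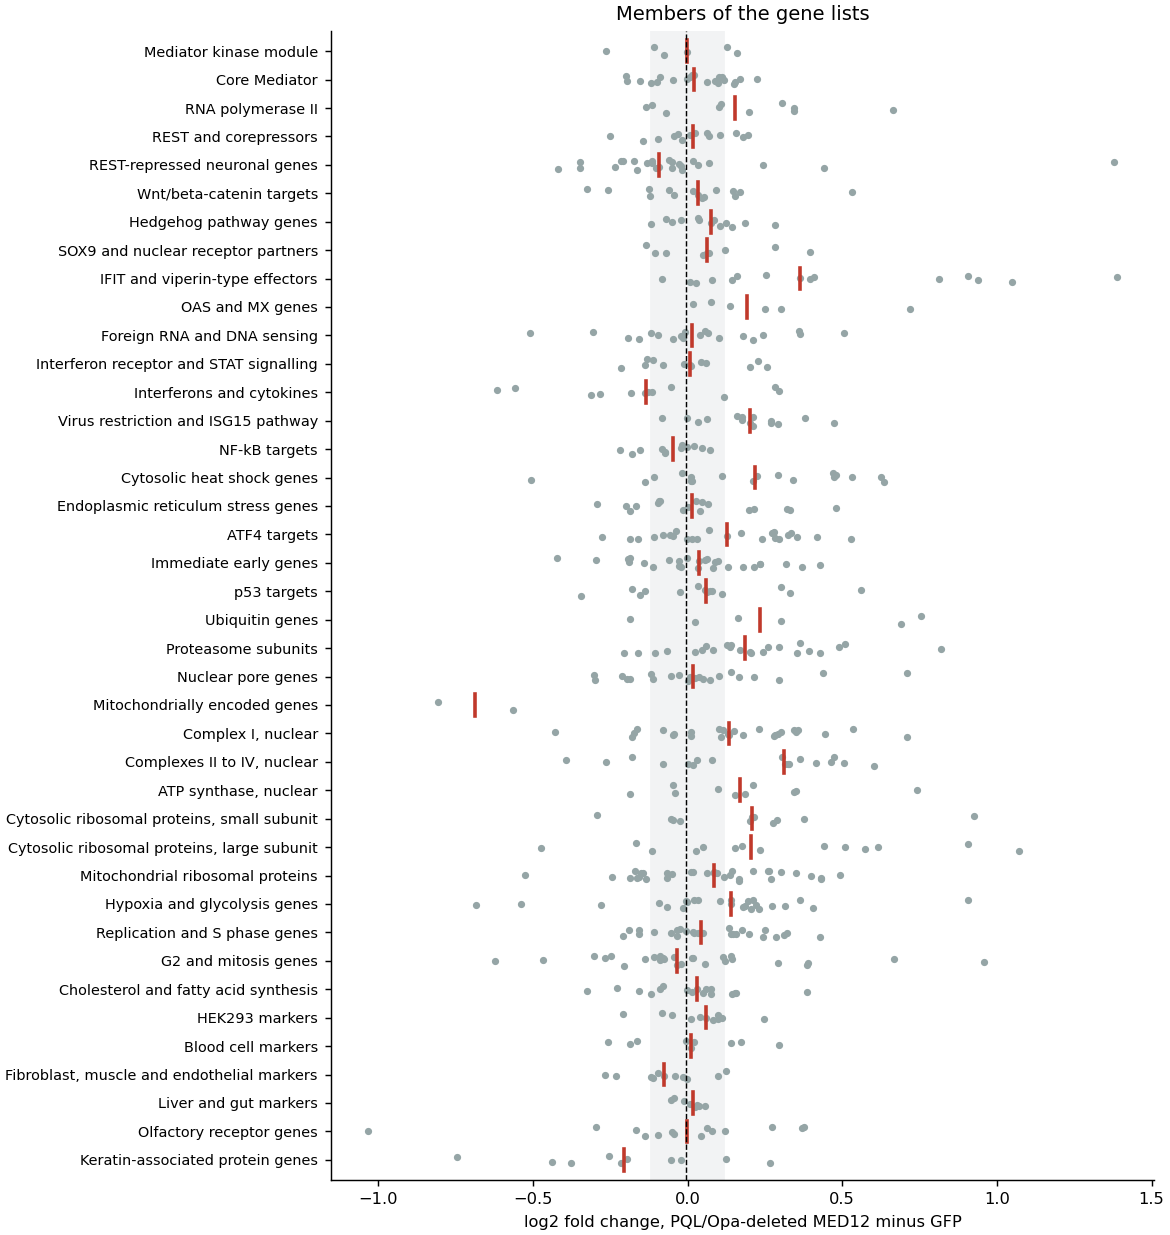
Log2 fold change of PQL/Opa-deleted MED12 minus GFP for the measured members of the 40 gene lists (grey points, MED12 not drawn), with list medians as red bars, the median of all genes as a dashed line and the range between the quartiles of all genes shaded. The list of IFIT and viperin-type effectors has a median of 0.36 and the pair of mitochondrially encoded genes -0.69. The shaded band is the spread of single genes and not of list medians.

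The deleted construct was then set against full-length MED12 in the same fit. Over all 22011 rows 0 were higher and 1 (0.00454%) was lower with the deleted construct, and that row was MED12 itself, with 8.62, 8.90 and 9.25 in the PQL/Opa-deleted arrays and 10.63, 10.66 and 10.75 in the full-length arrays. The difference was -1.76 ± 0.20 (SE; limma, adjusted p = 0.0421), and the groups did not overlap. The call was lost without PQL/Opa-deleted replicate 1 or 2, GFP replicate 2 or 3, any 1 of the full-length arrays, or shRNA replicate 2 or 3, where the adjusted p reached 0.365. For no other gene named here did the constructs differ past the threshold. Of the 12 bright genes with the smallest p-values on the higher side, MED12 included, the full-length mean was above the GFP mean in 12. On the lower side the full-length mean was above the GFP mean in 3 of 12. The hairpin mean was above the GFP mean in 8 of 12 on the higher side and in 1 of 12 on the lower side. These genes were chosen by their separation from the same GFP arrays, so the counts cannot show agreement between the constructs. UBB averaged 9.39 with the deleted construct, 9.32 with full-length MED12 and 8.63 with GFP, and HSPA8 averaged 9.38, 9.52 and 8.75. IFIT3 had 4.48, 5.32 and 5.04 with the deleted construct, against 3.89, 3.59 and 4.53 with full-length MED12, a difference of 0.94 ± 0.27 (SE; limma, adjusted p = 1.00). IFI44 had 4.03, 4.17 and 4.24 in the PQL/Opa-deleted arrays and 3.82, 3.85 and 3.59 in the full-length arrays, a difference of 0.39 ± 0.16 (SE; limma, adjusted p = 1.00). The median difference of the 15 effectors was 0.22 between the constructs, and that of the 18 heat shock genes was -0.38, with 0 members past the threshold in either list. DNAJB1, the HSP70 co-chaperone gene chosen here after its values were seen, had 3.90, 4.52 and 4.63 with the deleted construct and 5.59, 5.86 and 6.35 with full-length MED12, and these groups did not overlap. The GFP arrays are shared by the comparisons of the constructs and of the hairpin with GFP.

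Against the MED12 shRNA arrays 4 rows (0.0182%) were higher with the deleted construct and 3 (0.0136%) were lower. The higher rows were MED12, ZFAND2A and a pair of rows with several symbols, and the lower rows were IFI44, NMI and TRIM22. MED12 had 3.63, 3.63 and 3.74 in the shRNA arrays, 5.25 ± 0.20 (SE) under the deleted construct's mean on the log2 scale (limma, adjusted p = 2.72e-07). ZFAND2A had 5.46, 5.85 and 5.91 in the PQL/Opa-deleted arrays, against 3.96, 4.58 and 4.18 in the shRNA arrays, a difference of 1.51 ± 0.19 (SE; limma, adjusted p = 0.0299). IFI44 had 4.03, 4.17 and 4.24 with the deleted construct, against 5.54, 5.98 and 5.66 with the hairpin, a difference of -1.58 ± 0.16 (SE; limma, adjusted p = 0.00488). NMI, an interferon-induced partner of STAT proteins, had 2.40, 2.26 and 2.05 in the PQL/Opa-deleted arrays and 3.65, 3.42 and 3.49 in the shRNA arrays (-1.28 ± 0.17, SE; limma, adjusted p = 0.0300). TRIM22, an interferon-induced ubiquitin ligase gene, had 2.40, 2.62 and 2.53 with the deleted construct and 4.08, 4.97 and 4.71 with the hairpin (-2.07 ± 0.28, SE; limma, adjusted p = 0.0325). In all 5 genes the groups were fully apart. MED12 and IFI44 passed in all 12 fits that left out 1 array, while ZFAND2A was lost in 9 of them, NMI in 10 and TRIM22 in 9, with adjusted p up to 0.209, 0.209 and 0.260, the exceptions being PQL/Opa-deleted replicate 1, GFP replicate 1 and shRNA replicate 2 for ZFAND2A, GFP replicate 1 and shRNA replicate 2 for NMI, and GFP replicate 1, full-length replicate 3 and shRNA replicate 1 for TRIM22. The median difference of the 15 effectors was -0.89 between the deleted construct and the hairpin, beside 0.36 between the deleted construct and GFP. The hairpin arrays differ in vector and promoter as well, and these factors cannot be told apart from the hairpin.

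**Figure D5:**
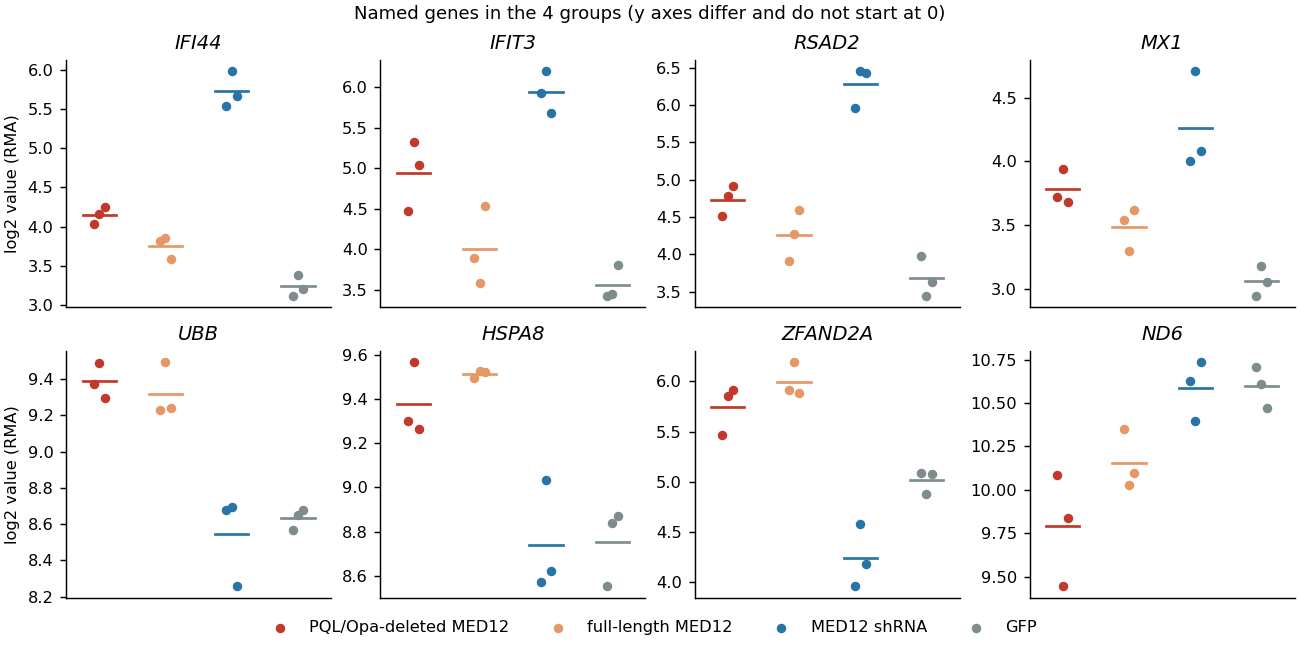
Log2 RMA values of 8 named genes in PQL/Opa-deleted MED12 (red), full-length MED12 (orange), MED12 shRNA (blue) and GFP (grey), from left to right in each panel; points are arrays and bars are means, and the y axes differ. For IFI44 the deleted construct, between 4.03 and 4.24, lies above GFP, between 3.12 and 3.39, and below the hairpin, between 5.54 and 5.98.

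The cell label was checked with marker lists. Of the 13 HEK293 markers 11 were measured, 7 of them in the brightest 25% of rows, with a median level of 4.31, and KRT8, an epithelial keratin gene, and VIM, vimentin, had mean levels of 7.33 and 6.02. Markers of blood cells had a median level of 2.58, those of fibroblasts, muscle and endothelium 3.05, and those of liver and gut 2.84, with 1 of 9, 0 of 11 and 0 of 8 measured members in that bin. The HEK293 list also names general genes such as ACTB, GAPDH and EEF1A1, and ACTB, at 7.63, was its brightest member. Its brightness therefore does not mark the cell type alone, and 1 of its 11 measured members lay in the dimmer rows. RMA values have no true zero, so dim rows cannot be called absent. No marker passed between PQL/Opa-deleted MED12 and GFP. The mean of the blood markers, set to 0 for the GFP mean, was 0.41, -0.20 and -0.20 in the PQL/Opa-deleted arrays and 0.20, -0.10 and -0.11 in the GFP arrays, so that replicate 1 was the high array of both groups.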

How the data were processed

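Gene expression was measured on 12 arrays of 1 colour, 3 per group, from RNA amplified and labelled with biotin. The deposited values are log2 RMA values, and per the submitters' processing notes the tools and build were Partek, RMA and hg18. For versions, the background option, filters and array batches, the sources used here give nothing. The values were used as they stand, and 0 columns were left out. Row symbols came from the platform annotation: 14432 rows had 1 symbol, 2408 several and 5171 none, and 14404 were matched by Entrez ID to RefSeq. Each gene was represented by its row with the highest mean.

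A model of 4 group means was fitted in R 4.3.3 by lmFit and eBayes of limma 3.58.1 (8 residual and 3.52 prior degrees of freedom), with Benjamini-Hochberg adjustment over 22011 rows. All adjusted p-values are from limma. The p-values measure the spread between samples labelled biological replicates, whose separate culture is not described. The procedure was tested on simulated data. Alternatives were quantile normalization, scaled arrays, a dim-row filter, rows with 1 symbol only, 6 arrays only, a trended robust variance, array weights, a replicate block and leaving arrays out. Deviations of same-numbered PQL/Opa-deleted and GFP arrays from their group means correlated at 0.472, 0.149 and 0.378. PQL/Opa-deleted replicate 2 correlated more with GFP replicate 3 (0.273), and PQL/Opa-deleted replicate 3 correlated with GFP replicate 2 at 0.124. The numbers were taken to pair the samples, though these values do not clearly pair replicates 2 and 3. The labels do not say what a number marks.

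Genes were named by rule: the kinase module; rows that passed; the 12 bright and 5 dim genes per direction with the smallest p among those without overlap; the 5 largest bright differences per direction; and up to 4 members per list with the smallest p. The comparison, the lists and the rules were chosen with earlier results of these data known. Promoters came from RefSeq (GRCh38.p14), matched by symbol. The lists named 847 entries, of which 628 were measured.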

Additional observations from a re-analysis of the deposited data

Results flagged for a closer look

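MED12 differed between the constructs. In the same fit its log2 value was 8.62, 8.90 and 9.25 with PQL/Opa-deleted MED12 and 10.63, 10.66 and 10.75 with full-length MED12, a difference of -1.76 ± 0.20 (SE; limma, adjusted p = 0.0421), and every PQL/Opa-deleted array was below every full-length array. It was picked out because the test of the difference between both overexpression groups, which carry the same tag and vector, passed the threshold. Of the 12 fits without a single array, 9 lost the call, and over all 12 the difference ran from -1.92 to -1.61 and the adjusted p reached 0.365. Whether the probes lie in the deleted domains was not tested, because no source used here gives their positions.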

How the results depend on the processing

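MED12 rose against GFP under all 21 alternatives, by 4.32 to 4.66 on the log2 scale (limma, adjusted p at most 0.00347). The number of rows that passed against GFP was 1 in each fit that left out 1 array, 2 with the replicate block and 20 with array weights, and 1 in the other alternatives. Against full-length MED12 the count of 1 became 2 with quantile normalization, 3 with centred and scaled arrays, 2 without the dim rows, 4 with array weights, 0 with a trended robust variance, 0 without replicate 1 of the PQL/Opa-deleted, GFP and shRNA groups together, and 0 to 3 without single arrays. The MED12 difference between the constructs was -1.76 with a trended robust variance (limma, adjusted p = 0.0928), -1.61 without those replicates 1 (adjusted p = 0.0622) and -1.92 to -1.61 without single arrays, and its call was lost in both settings and in 9 of the 12 fits without 1 array. Against the shRNA the count of 7 became 21 with quantile normalization, 13 with scaled arrays, 6157 with array weights (shRNA replicate 3 was weighted 8.77), and 3 to 20 without single arrays, the highest without shRNA replicate 2. The cause of these changes was not tested.

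Of 97 named genes other than MED12, 0 passed against GFP as deposited, and 7 did so with array weights: IFI44 at 0.85, IFIT3 at 1.64, RSAD2 at 1.29, ZFAND2A at 0.92, IFIT2 at 1.00, ND6 at -0.95 and KRTAP3-1 at -0.98. Signs turned only for kinase module members when 1 array was left out: MED13 ran from -0.38 to 0.27, MED13L from -0.12 to 0.53, CDK8 from -0.50 to 0.084 and CCNC from -0.25 to 0.011. The replicate block changed no other call against GFP than that of row 2686794 given above; against the shRNA, TRIM22 was lost with it. Of the 98 genes followed, 40 moved by over 1.5 times or turned sign in at least 1 fit without a single array. Dim rows may lie near background.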

Other observations

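Large differences were concentrated among rows without a single gene symbol. Over all 22011 rows, 117 had a log2 fold change of 1 or more and 89 of -1 or less with PQL/Opa-deleted MED12 against GFP, whereas among the 14232 genes the counts were 9 and 5. Rows with no symbol or several made up 5171 and 2408 of the total, and 1 of the dimmest, row 2686794, was the one called with the replicate block.

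Other gene lists had medians from -0.20 to 0.086 as deposited. Cholesterol and fatty acid synthesis genes had 10 of 17 measured members above 0 and a median of 0.031, endoplasmic reticulum stress genes 10 of 18 and 0.016, immediate early genes 15 of 27 and 0.037, and p53 targets 9 of 14 and 0.060. Nuclear pore genes had 13 of 22 above 0 and a median of 0.016, with NUP50 at 0.71 and SEC13, a coat and pore protein gene, at 0.44. Mitochondrial ribosomal proteins had 21 of 33 above 0 and a median of 0.086. Olfactory receptor genes had 7 of 14 above 0 and a median of -0.00068. Keratin-associated protein genes had 2 of 10 above 0 and a median of -0.20, and 9 of the 10 lay in the dimmer rows. Without GFP replicate 1 the nuclear pore median was -0.18, the endoplasmic reticulum stress median -0.10, the cholesterol median -0.013, the immediate early median 0.14, the olfactory receptor median 0.15 and the mitochondrial ribosomal median 0.00097. The keratin-associated median was -0.35 without PQL/Opa-deleted replicate 1, -0.099 without GFP replicate 1 and -0.12 without replicate 1 of both groups, with 2 members without overlap, both lower. In all these lists 0 members passed (limma). Over 14205 genes with a length in RefSeq (GRCh38.p14), Spearman's rho of the log2 fold change with genomic length was -0.036, a description across genes that are not independent.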
